A study of Mus musculus with 9 samples.

Results

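Red blood cells carry oxygen on haemoglobin, and their transcripts enter any RNA sample from tissue that was not drained of blood. Described here are 9 red cell genes of mouse dorsal root ganglia (DRG): the 7 haemoglobin chains Hba-a1, Hba-a2, Hba-x, Hbb-bs, Hbb-bt, Hbb-bh1 and Hbb-y, together with Alas2 and Slc4a1. They are the rows of the deposited count table that carry these 9 symbols, 9 of 55247 rows. They were selected on their raw counts in these 9 libraries, which were known beforehand, so their own values, and the counts of calls among them given with the genotype comparisons, are a description and no independent test.

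The libraries were made from DRGs of E18.5 embryos, a day or so before birth, in 3 genotypes with 3 libraries each. WT embryos had no engineered allele. In Isl1Cre/+ embryos the Cre recombinase stood in 1 copy of Isl1, a gene of sensory neurons, and Isl1Cre/+::Meis2LoxP/LoxP embryos, called mutant below, had in addition both copies of Meis2 flanked by LoxP sites around exon 8. The Cre therefore acts in cells with a history of Isl1 expression and takes 1 working copy of Isl1, a loss that the mutant and the Isl1Cre/+ groups share. Nothing in the labels says whether a library is 1 embryo or a pool, and the p-values below measure only the spread between these libraries. The libraries held between 23854607 and 29103444 counts, and Meis2 had 2537 to 2919 counts in the 6 control libraries and 1004 to 1084 in the 3 mutant libraries, as the labels say. All 7 genes of the sensory neuron list were detected in every library, with between 134146 and 203230 summed counts. Throughout, cpm stands for a library's counts scaled to a common total of 1000000 after normalization by TMM, a factor per library computed from all tested genes.

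Haemoglobin is a tetramer of alpha-type and beta-type chains around haem. In the mouse the first red cells come from the yolk sac and use the embryonic chains Hba-x (zeta), Hbb-bh1 and Hbb-y, while those made later in the fetal liver and the bone marrow use the adult chains Hba-a1, Hba-a2, Hbb-bs and Hbb-bt. Alas2 makes the first intermediate of haem in red cell precursors, and Slc4a1, called band 3, is the anion exchanger of the red cell membrane. Mammalian red cells lose their nucleus, those of the fetal liver and the bone marrow before they circulate, but young ones, the reticulocytes, still hold RNA, chiefly of the globins.

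The genes lie in 2 clusters of the mm10 genome and at 2 further places. The beta-type genes follow each other on the minus strand of chromosome 7, with Hbb-bt at chr7:103812524-103813996, Hbb-bs at chr7:103826534-103828096, Hbb-bh1 at chr7:103841637-103843164 and Hbb-y at chr7:103851749-103853216. The alpha-type genes are on the plus strand of chromosome 11, Hba-x at chr11:32276400-32278116, Hba-a1 at chr11:32283511-32284465 and Hba-a2 at chr11:32296489-32297298. Slc4a1 is on the minus strand of the same chromosome, at chr11:102348824-102366203. Alas2 is on the plus strand of chromosome X, at chrX:150547375-150570638, where 372 of its 2403 exonic bases lie under exons of the opposite strand.

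The coding sequences show which of these genes a short read can tell apart. Below are coding bases 31 to 90 of each chain, counted from the A of the start codon on the strand of the gene and read from the mm10 transcripts of GENCODE M21, with capitals at the bases that differ from Hbb-bs among the beta-type genes and from Hba-a1 among the alpha-type genes.
Hbb-bs: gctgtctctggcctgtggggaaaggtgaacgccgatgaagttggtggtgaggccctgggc
Hbb-bt: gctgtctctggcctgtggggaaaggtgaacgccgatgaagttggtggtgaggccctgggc
Hbb-bh1: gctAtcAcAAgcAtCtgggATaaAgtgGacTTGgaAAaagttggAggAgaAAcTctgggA
Hbb-y: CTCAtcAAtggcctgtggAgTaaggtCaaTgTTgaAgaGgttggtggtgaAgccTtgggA
Hba-a1: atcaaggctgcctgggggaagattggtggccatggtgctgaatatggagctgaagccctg
Hba-a2: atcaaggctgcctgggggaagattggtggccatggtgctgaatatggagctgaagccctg
Hba-x: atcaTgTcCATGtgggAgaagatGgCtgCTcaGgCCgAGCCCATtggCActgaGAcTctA
The adult pairs are identical over this stretch, while Hbb-bh1 differs from Hbb-bs at 21 of 60 bases, Hbb-y at 17 and Hba-x from Hba-a1 at 27. Over the whole coding sequence Hbb-bs and Hbb-bt differ at 1 of 444 bases (C417T, Hbb-bs first) and Hba-a1 and Hba-a2 at 1 of 429 (C381T, Hba-a1 first), positions counted from the start codon. Identity with the embryonic genes was lower, at 74.1% for Hbb-bh1 and 74.3% for Hbb-y against Hbb-bs, and 62.0% for Hba-x against Hba-a1. Reads were 84 bases long and only uniquely mapped ones were counted, so a read without a difference between the copies of a pair was left out. Of all stretches of 84 bases in the transcript, another gene also holds 63.7% for Hbb-bs, 56.0% for Hbb-bt, 60.2% for Hba-a1 and 78.8% for Hba-a2, but none for the other 5 genes. The counts of the 4 adult chains are thus too low by an unknown part and their split within a pair is uncertain, while the embryonic chains, Alas2 and Slc4a1 are not touched by this.

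The promoters of 3 chains are shown because these genes moved together across libraries, or, for Hbb-y, hardly gave a count. Each is the 150 bases before the start given by RefSeq on GRCm38.p6, 5′ to 3′ on the strand of the gene, at chr7:103827929-103828078 (minus strand) for Hbb-bs, chr11:32296342-32296491 (plus strand) for Hba-a2 and chr7:103853208-103853357 (minus strand) for Hbb-y. Capitals mark the letters CACCC, the letters CCAAT and a TATA-like run (TATAA or ATAAAA).
Hbb-bs: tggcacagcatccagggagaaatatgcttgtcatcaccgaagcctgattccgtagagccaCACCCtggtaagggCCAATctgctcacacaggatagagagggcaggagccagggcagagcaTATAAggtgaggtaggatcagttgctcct
Hba-a2: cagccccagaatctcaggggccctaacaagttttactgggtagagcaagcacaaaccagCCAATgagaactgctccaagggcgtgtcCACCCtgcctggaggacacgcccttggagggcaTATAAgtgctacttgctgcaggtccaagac
Hbb-y: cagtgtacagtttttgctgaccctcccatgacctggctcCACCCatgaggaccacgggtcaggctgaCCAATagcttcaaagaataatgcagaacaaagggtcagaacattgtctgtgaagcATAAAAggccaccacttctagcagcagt
All 3 hold each of these letters, with the TATA-like run starting at -29 in Hbb-bs, -30 in Hba-a2 and -28 in Hbb-y relative to that start. CACCC precedes CCAAT in both beta-type genes, at -90 and -76 in Hbb-bs and at -111 and -83 in Hbb-y, and follows it in Hba-a2, at -63 against -91. Over all 32851 RefSeq promoters of the same length, 37.4% hold CACCC and 24.5% CCAAT on either strand, and 13.5% hold the TATA-like run on the strand of the gene. The red cell factor GATA1 binds letters such as AGATAA, or TGATAA when it starts with T, or AGATAG when it ends with G, or else TGATAG. These do not overlap the other motifs, and 16.0% of promoters hold them on either strand. They stood once in the same window of Hba-x and once in that of Alas2, and not in those of the adult chains or Hbb-y. A run of letters is not a binding site, and the RNA data do not measure binding.

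The adult beta chain Hbb-bs was the most abundant of the 9 transcripts in every library. It had 27667, 13247 and 23571 counts in the WT libraries, 6593, 14140 and 5124 in the Isl1Cre/+ libraries, and 17261, 53819 and 28166 in the mutant libraries. Its cpm averaged 772.5 ± 287 for WT, 302.0 ± 175 for Isl1Cre/+ and 1277 ± 703 for the mutant (SD, n = 3). All 3 mutant libraries were above all 3 Isl1Cre/+ libraries, while WT overlapped both, and mutant library 2 and Isl1Cre/+ library 3 were the extremes.

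The near-identical adult beta chain Hbb-bt took a similar course at a lower count. It had 8216, 3365 and 6245 counts for WT, 1658, 4065 and 1436 for Isl1Cre/+ and 4471, 14220 and 7882 for the mutant. The adult alpha chain Hba-a1 had 11642, 4758 and 7203 counts for WT, 2482, 5057 and 1687 for Isl1Cre/+ and 5711, 19645 and 9578 for the mutant. For its copy Hba-a2 the counts were 7726, 3222 and 5189 for WT, 1677, 3413 and 1221 for Isl1Cre/+ and 3904, 13831 and 6593 for the mutant. For each of the 4 adult chains the highest library was mutant library 2 and the lowest Isl1Cre/+ library 3, and the mutant libraries did not overlap the Isl1Cre/+ libraries.

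Alas2 and Slc4a1, which share no sequence with the globins, followed the same course. Alas2, the haem enzyme, had 1350, 700 and 1008 counts for WT, 322, 730 and 239 for Isl1Cre/+ and 797, 2677 and 1573 for the mutant. Slc4a1, the band 3 exchanger, had 171, 68 and 97 counts for WT, 46, 69 and 31 for Isl1Cre/+ and 75, 323 and 142 for the mutant. Both were again lowest in Isl1Cre/+ library 3 and highest in mutant library 2, and for both the mutant and Isl1Cre/+ libraries did not overlap. In cpm, Alas2 averaged 36.7 ± 13.1 for WT, 15.1 ± 9.50 for Isl1Cre/+ and 65.1 ± 35.7 for the mutant, and Slc4a1 4.05 ± 2.09, 1.70 ± 0.694 and 6.94 ± 4.81 (SD, n = 3). Slc4a1 passed the filter used for testing, 100 counts or more in any library, through 3 libraries with high counts.

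**Figure D1:**
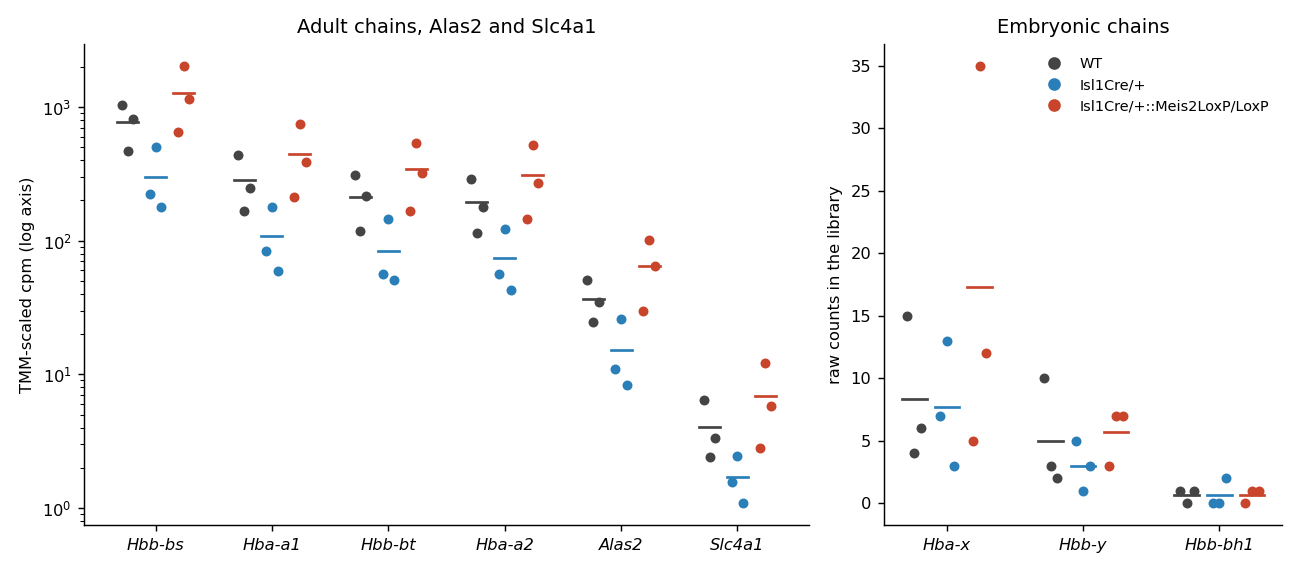
Each point is 1 library and each short line the mean of 3 libraries of a genotype, with cpm on a log axis for the adult chains, Alas2 and Slc4a1 (left) and raw counts for the embryonic chains (right). The 6 genes on the left have their lowest mean in Isl1Cre/+ and their highest library in the mutant, while no embryonic chain exceeds 35 counts.

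Per kb of exonic length and over all 9 libraries, the order of mean levels was Hbb-bs (1021 cpm per kb), Hba-a1 (345), Hbb-bt (303), Hba-a2 (290), Alas2 (16.2), Slc4a1 (0.865), Hba-x (0.440), Hbb-y (0.267) and Hbb-bh1 (0.0400). In every library each adult chain was above Alas2, and Alas2 above Slc4a1. Among the chains in the middle the order depends on the reads that were left out. Per 1000 stretches of 84 bases that no other gene holds, Hba-a2 came to 1935 cpm and Hba-a1 to 1144, the reverse of their order per kb, with Hbb-bs at 3959 and Hbb-bt at 781.

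Summed, the 7 chains made up 0.190%, 0.0884% and 0.150% of all counts in the WT libraries, 0.0430%, 0.0957% and 0.0338% in the Isl1Cre/+ libraries and 0.113%, 0.386% and 0.219% in the mutant libraries. The mean share was 0.143 ± 0.0511% for WT, 0.0575 ± 0.0334% for Isl1Cre/+ and 0.239 ± 0.138% for the mutant (SD, n = 3). With 9476 to 101558 chain counts per library, counting error is small beside this spread: the Wilson 95% interval ran from 0.0331% to 0.0345% in the lowest library and from 0.383% to 0.388% in the highest. Libraries of the same genotype differed by over 2-fold, and between the extremes of all 9 the summed cpm of the chains, called the haemoglobin level below, differed 11.5-fold (332.6 against 3840). Red cell RNA was thus a small part of each library, and in bulk samples fewer red cells and less RNA per red cell cannot be told apart.

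The proportions among red cell transcripts varied far less than their amount. The ratio of alpha-type to beta-type counts lay between 0.416 (WT library 3) and 0.540 (WT library 1), with a coefficient of variation (CV) over the 9 libraries of 8.08%, against 74.2% for the haemoglobin level. Hba-a2 had 0.664 to 0.724 counts for each count of Hba-a1 (CV 3.07%), close to the 2.30% that counting error alone gives. Hbb-bt had 0.251 to 0.297 counts for each count of Hbb-bs (CV 5.84%, counting error 1.89%). WT library 1 had the highest alpha-to-beta and Hbb-bt-to-Hbb-bs ratios and the lowest Hba-a2-to-Hba-a1 ratio. These ratios had nearly the same mean in the 3 genotypes, with alpha to beta at 0.479 ± 0.0621 for WT, 0.471 ± 0.0309 for Isl1Cre/+ and 0.461 ± 0.0272 for the mutant (SD, n = 3). A ratio under 1 does not give the balance of the chains, because more of the alpha-type sequence is shared: per stretch held by 1 gene the median ratio of the adult alpha to the adult beta chains was 0.635.

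Alas2 and Slc4a1 kept step with the chains as well. Alas2 had 2.39 to 3.01 counts for every 100 chain counts (CV 7.56%, counting error 4.01%), lowest in WT library 3 and highest in mutant library 3. Slc4a1 had 0.230 to 0.370 for every 100 (CV 15.8%, counting error 11.7%), lowest in WT library 3 and highest in Isl1Cre/+ library 1. The 3 genotypes overlapped in both ratios. Across the 9 libraries, the log2 levels of the 6 genes with enough counts to be tested correlated with the haemoglobin level at r between 0.972 for Slc4a1 and 0.999 for Hbb-bs, where the 4 adult chains are themselves part of that level.

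**Figure D2:**
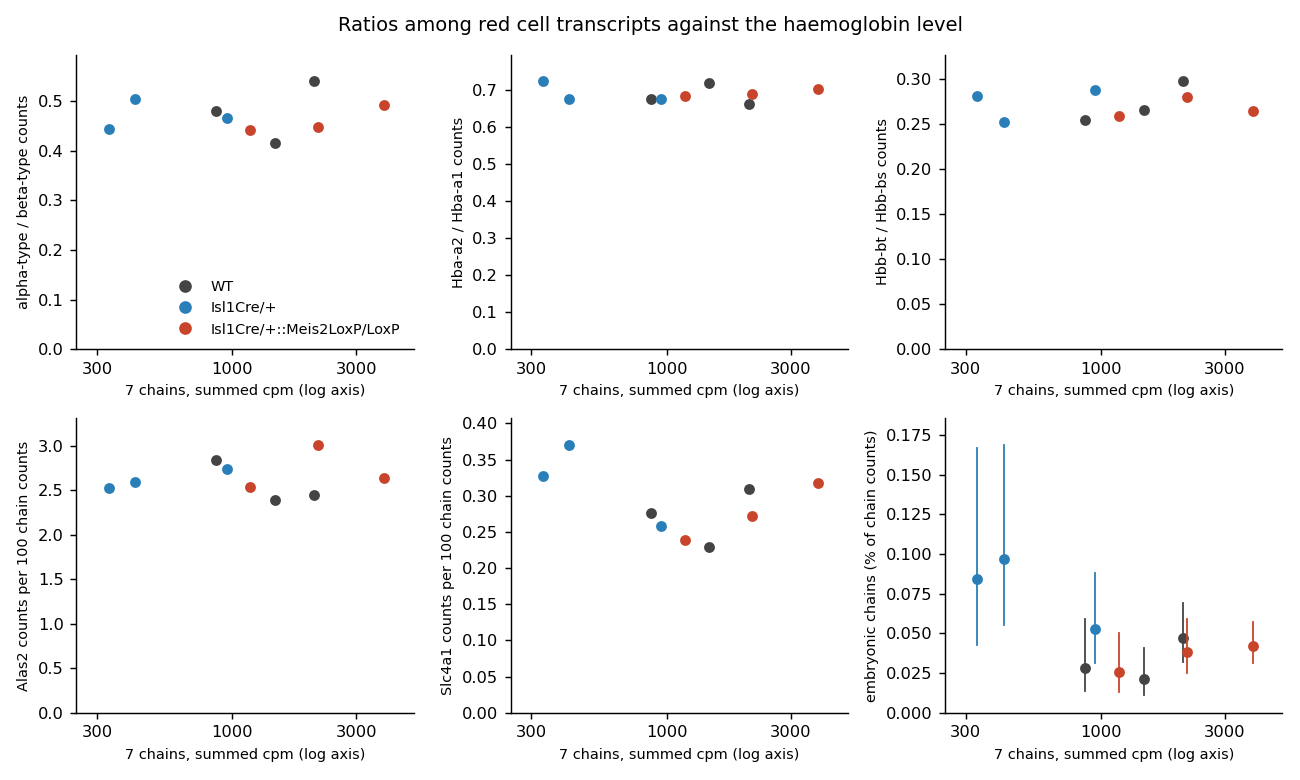
Each panel plots a ratio against the haemoglobin level (summed cpm of the 7 chains, log axis), with 1 point per library in the colour of its genotype, ratios in counts on axes from 0 and Wilson 95% intervals for the embryonic share. Over an 11.5-fold range of the haemoglobin level the first 5 ratios differ at most 1.61-fold between any 2 libraries, and the embryonic share is highest in the 3 Isl1Cre/+ libraries with wide intervals.

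The embryonic chains were nearly absent at this stage. Hba-x, the embryonic alpha-type chain, had 15, 4 and 6 counts for WT, 7, 13 and 3 for Isl1Cre/+ and 5, 35 and 12 for the mutant. Hbb-y, an embryonic beta-type chain, had 10, 3 and 2 counts for WT, 5, 1 and 3 for Isl1Cre/+ and 3, 7 and 7 for the mutant. Hbb-bh1, the other embryonic beta-type chain, had no count in 4 libraries and at most 2 in the others, 6 in all. Hba-x was highest where the adult chains were highest, in mutant library 2, whereas Hbb-y was highest in WT library 1. None of the 3 reached the filter for testing, so no fold change is given for them.

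Together the 3 embryonic chains gave 147 of the 355832 chain counts, or 0.0413%. Of these 147 counts 100 were Hba-x, 41 Hbb-y and 6 Hbb-bh1, and there were 1145 counts of the adult alpha chains for each count of Hba-x. The embryonic share of the chain counts was 0.0470%, 0.0285% and 0.0213% for WT, 0.0966%, 0.0525% and 0.0844% for Isl1Cre/+ and 0.0255%, 0.0423% and 0.0383% for the mutant. All 3 Isl1Cre/+ libraries lay above the other 6, with a mean of 0.0778 ± 0.0228% against 0.0323 ± 0.0133% in WT and 0.0354 ± 0.00878% in the mutant (SD, n = 3). These shares rest on 8 to 14 embryonic counts per Isl1Cre/+ library, with Wilson 95% intervals from 0.0428% to 0.167% in Isl1Cre/+ library 3 and from 0.0313% to 0.0880% in library 2, which overlap those of libraries of the other genotypes such as WT library 1 (0.0321% to 0.0689%). The separation was one of the pooled chains and held for neither chain type alone. Isl1Cre/+ library 2 had 1 count of Hbb-y and 0 of Hbb-bh1, beside 14140 of Hbb-bs and 4065 of Hbb-bt. Its embryonic share of the beta-type counts was the lowest of all 9 libraries. Among the alpha-type counts, the share of Hba-x in Isl1Cre/+ library 3 (3 counts) was slightly below that in mutant library 2 (35 counts). The Isl1Cre/+ libraries had 9476 to 26689 chain counts, against 24599 to 101558 in the other 6. Because unshared reads alone were counted for the adult pairs, the true share is lower: per stretch of 84 bases held by 1 gene it averaged 0.00951 ± 0.00396% for WT, 0.0231 ± 0.00780% for Isl1Cre/+ and 0.0102 ± 0.00233% for the mutant (SD, n = 3).

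Of the remaining globins of the table, the theta-like genes of the alpha cluster were as low as the embryonic chains, with 1 to 14 counts of Hbq1b and at most 5 of Hbq1a in a library. Hbb-bh2 and Hbb-bh0 had no count in any library. The only globin outside the 7 chains with enough counts to be tested was Cygb, cytoglobin, with 371 to 633 counts, which met the criterion below in no comparison. The regulators that silence the embryonic chains in red cell precursors were present: Zbtb7a (955 to 1243 counts), Bcl11a (693 to 858) and Sox6 (206 to 257). Neurons also express several of them. They belong to a list of globin switching regulators that is not limited to silencers, and none of its 4 tested genes met the criterion in any comparison.

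The study compared the genotypes in pairs and called genes at a fold change of at least 1.2 with an unadjusted p under 0.05. The same criterion was applied to edgeR's quasi-likelihood fits of all 13200 genes that reached 100 counts in 1 library or more. Of the 9 red cell genes 6 were in these fits, the adult chains, Alas2 and Slc4a1. The 3 comparisons share libraries, so their values are given side by side and not as independent results.

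Between the mutant and Isl1Cre/+ the 6 genes had log2 fold changes from 2.03 (Slc4a1) to 2.11 (Alas2), with standard errors (SE) of 0.51 to 0.55. Hbb-bs, at 2.08, stood for a mean of 1277 cpm against 302.0. All 6 met the criterion and had no overlap between the groups, where 1.41% of all tested genes met it in this direction and 3.45% had every mutant library above every Isl1Cre/+ library. The genes were picked with these values known, and their share is not read against that background. At an adjusted p under 0.05, 0 of the 6 passed, as against 1 of the 13200 genes, Meis2 (0.00758%, with 360 at an unadjusted p under 0.05, 10 at an adjusted p under 0.05 with DESeq2). Without mutant library 2 the 6 log2 fold changes lay between 1.34 and 1.65, and all 6 still met the criterion.

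Between Isl1Cre/+ and WT the log2 fold changes ran from -1.38 (Hba-a1) to -1.23 (Slc4a1), with SE of 0.43 to 0.47, so that Isl1Cre/+ was lower. All 6 met the criterion, which 1.14% of all tested genes met in this direction, although the groups overlapped for each of them. These calls hang on single libraries: 0 of the 6 remained without Isl1Cre/+ library 1, 2 without Isl1Cre/+ library 3 and 2 without WT library 1, and Slc4a1 was not called with all 3 genotypes in 1 fit (-1.25). At an adjusted p under 0.05 none of them passed, nor did any of the 13200 genes (0%, with 236 at an unadjusted p under 0.05, 1 at an adjusted p under 0.05 with DESeq2).

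Between the mutant and WT the log2 fold changes were 0.66 (Hba-a1) to 0.83 (Alas2), with SE of 0.43 to 0.56. None of the 6 met the criterion, which 0.0606% of all tested genes met in this direction, and none passed at an adjusted p under 0.05, as Meis2 alone did (1 gene, 0.00758%, with 49 at an unadjusted p under 0.05 and 1 at an adjusted p under 0.05 with DESeq2), and the groups overlapped for each. The median of the 6, 0.71, came to 1.04 without mutant library 1, when 4 met the criterion, to 0.17 without mutant library 2, to 1.1 without WT library 1 and to 0.44 without WT library 2. Without the filter on low counts 3 of them, Alas2, Hbb-bs and Hbb-bt, met the criterion at 0.85, 0.75 and 0.70. The ratio of the mean haemoglobin levels was 1.63 for the mutant over WT, 4.20 for the mutant over Isl1Cre/+ and 0.387 for Isl1Cre/+ over WT.

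Other genes of the red cell were taken from 4 lists that hold none of the 9: membrane and skeleton, haem synthesis and iron supply, erythroid transcription factors with the erythropoietin receptor, and cytosol and maturation. Of their 50 genes 49 were in the table and 32 were tested. Between the mutant and Isl1Cre/+ 6 of the 32 (18.8%) met the criterion, 5 higher and 1 lower in the mutant, where 1.67% of all tested genes did. Between Isl1Cre/+ and WT 3 of the 32 (9.38%) met it, 1 higher and 2 lower in Isl1Cre/+, where 1.40% of all tested genes did, and between the mutant and WT 0 of the 32 did, where 0.318% of all tested genes did. The median log2 fold changes of the 32 were 0.04, -0.04 and 0.03 in these comparisons, against 0.000293, -0.00160 and -0.00945 over all tested genes. At an adjusted p under 0.05 none of the 32 passed in any of them, and 7, 3 and 0 had an unadjusted p under 0.05.

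In the membrane list, Tmod1, which caps actin filaments of the membrane skeleton, met the criterion on the log2 scale by 0.27 ± 0.09 (SE) for the mutant over Isl1Cre/+ and by -0.29 ± 0.11 for Isl1Cre/+ over WT. The first of these calls was lost without Isl1Cre/+ library 2 (0.25) or mutant library 2 (0.19), and the second without WT library 1 (-0.21) or 3 (-0.28) or Isl1Cre/+ library 1 (-0.28) or 2 (-0.28). Both were lost with scaling by library size only (0.24 and -0.26), and the first also without the filter on low counts (0.25). The most abundant genes of this list were Add2, Ank1 and Dmtn, with 10714 to 14556, 3931 to 5107 and 4352 to 5939 counts, all of which neurons express too, and none of the 3 met the criterion in any comparison.

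The genes called in the other lists differed in direction. In the haem list, Fech, which inserts iron into the ring, was higher in the mutant than in Isl1Cre/+ by 0.28 ± 0.10 on the log2 scale (SE). Tfrc, the transferrin receptor that takes up iron, went the opposite way, with -0.39 ± 0.11 for the mutant over Isl1Cre/+ and 0.41 ± 0.14 for Isl1Cre/+ over WT. In the cytosol list, Car2, a carbonic anhydrase, and Bpgm, which makes the phosphate that loosens oxygen from haemoglobin, were higher in the mutant than in Isl1Cre/+ by 0.48 ± 0.13 and 0.44 ± 0.15. The call of Fech was lost without any of the 3 Isl1Cre/+ libraries (0.26 to 0.29), mutant library 2 (0.18) or mutant library 3 (0.28) or with scaling by library size only (0.26), and that of Bpgm without Isl1Cre/+ library 1 (0.40), Isl1Cre/+ library 3 (0.42) or mutant library 3 (0.41). Tfrc was no longer called for Isl1Cre/+ over WT without Isl1Cre/+ library 1 (0.38) or 2 (0.36). The most abundant genes of these lists were Tfrc, Fech and Slc25a38 (873 to 1097 counts) for haem and iron, and Prdx2, Ube2o and Mkrn1 (8838 to 10617, 3410 to 4844 and 3004 to 3467 counts) for the cytosol. The transcription factor list had 2 tested genes, Lmo2 (290 to 440 counts) and Zfpm1 (151 to 231), and neither was called, while Tal1 came next with 25 to 51 counts.

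**Figure D3:**
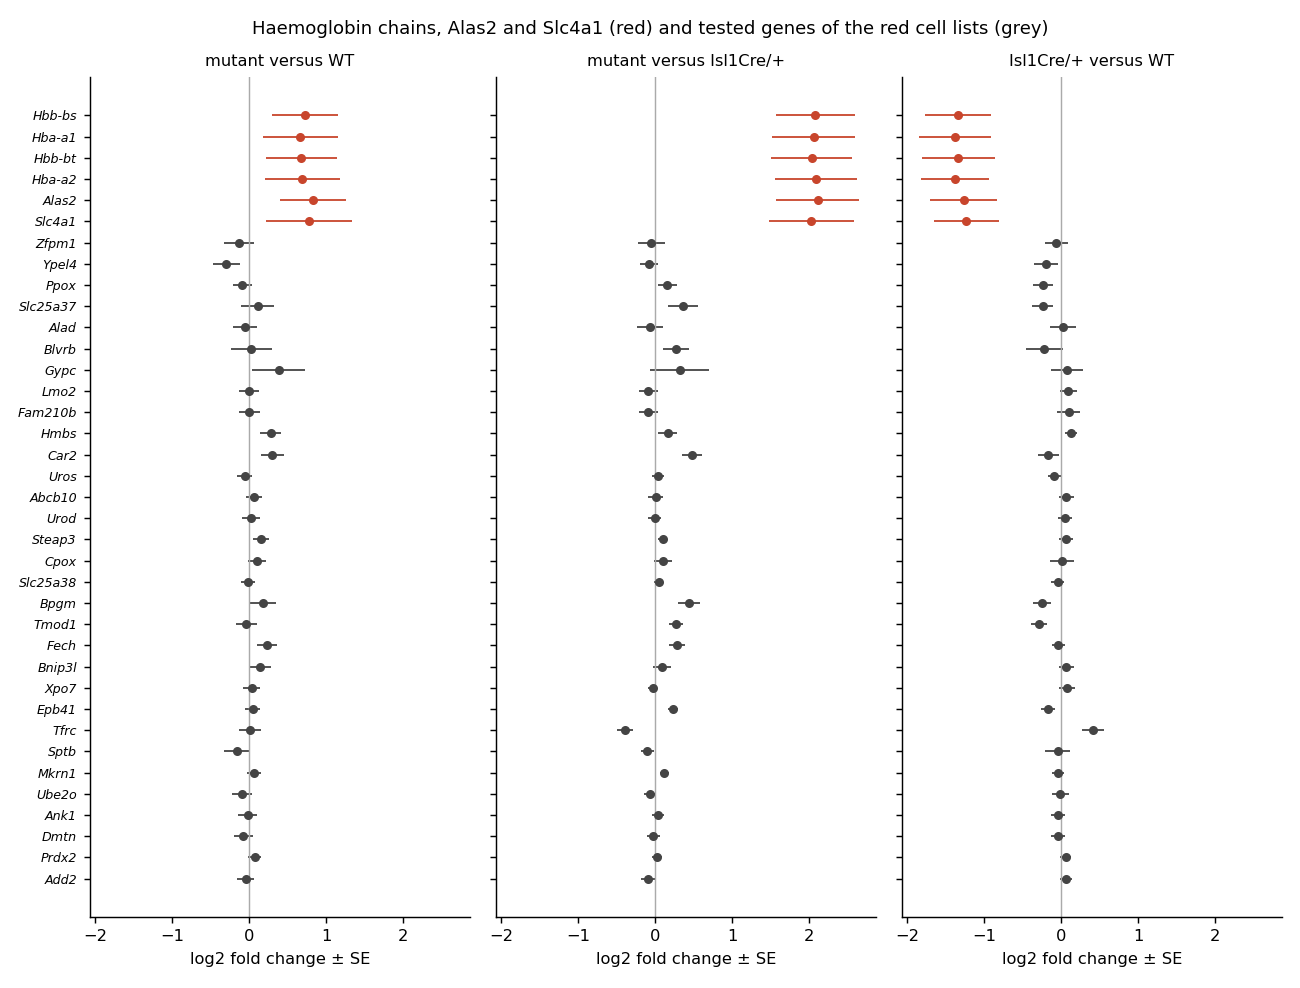
Log2 fold changes with their SE (edgeR, n = 3 against 3) in the 3 comparisons of genotypes, for the 6 red cell genes with enough counts (red) and 31 of the 32 tested genes of the red cell lists in order of abundance (grey). The grey genes drawn lie between -0.39 (Tfrc) and 0.48 (Car2) for the mutant over Isl1Cre/+, away from the 2.03 to 2.11 of the red ones.

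The red cell genes that stayed under 100 counts in every library were followed as a sum. These 17 genes, among them Epb42, Rhag, Kel, Ermap, Klf1 and Hemgn, had 177, 92 and 128 counts together for WT, 115, 115 and 95 for Isl1Cre/+ and 76, 262 and 142 for the mutant. In 13 of the 17 mutant library 2 had the highest cpm, and in the membrane list this held for 8 of 8. Some of these rest on few counts, and the tally was not set against all genes under the filter. Klf1, the activator of the adult beta genes in red cell precursors, had 4 to 17 counts, and Gata1 0 to 4.

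Across the 9 libraries the summed cpm of all 49 list genes showed no detectable relation to the haemoglobin level (Pearson's r = 0.32, p = 0.395; Spearman's rho = 0.28, p = 0.463, exact permutation tests). For the 17 genes under the filter r was 0.78 (p = 0.0128, adjusted over 40 coefficients 0.0569) and rho 0.77 (p = 0.0214, adjusted 0.0778), again by exact permutation. Without the 2 libraries farthest from the median haemoglobin level, mutant library 2 and Isl1Cre/+ library 3, that r was 0.62 (exact permutation p = 0.134, 7 libraries), while within genotypes, as deviations from each mean, r was 0.85 (exact permutation p = 0.0139). The 32 genes over the filter, between 2244 and 2437 cpm in sum, gave r = 0.30 (p = 0.435) and rho = 0.28 (p = 0.463, exact permutation tests). Of these 32 genes 5 had an r over 0.8 with the haemoglobin level (15.6%), against 1.17% of the 13194 tested genes outside the members.

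Markers of other cells moved with the haemoglobin level too. The 10 neutrophil genes, of white cells that travel in blood, had 678, 157 and 199 summed counts for WT, 150, 245 and 110 for Isl1Cre/+ and 235, 643 and 325 for the mutant. Their summed cpm correlated with the haemoglobin level at r = 0.90 (p = 0.00142, adjusted 0.0161) and rho = 0.90 (p = 0.00203, adjusted 0.0162, exact permutation tests). All 3 tested neutrophil genes, S100a8, S100a9 and Ngp, met the criterion as higher in the mutant than in Isl1Cre/+, by 1.40 ± 0.47, 1.67 ± 0.66 and 2.57 ± 0.89 (log2, SE). S100a8 and S100a9 lost the call without Isl1Cre/+ library 1 (1.28 and 1.61), Isl1Cre/+ library 3 (1.13 and 1.26) or mutant library 2 (0.96 and 0.89), and Ngp without Isl1Cre/+ library 1 (2.62) or mutant library 3 (2.46), and with all 3 genotypes in 1 fit all 3 genes lost it (1.40, 1.67 and 2.57). The granule genes Ngp and Ltf had no count in Isl1Cre/+ library 3, and Elane had none in 3 libraries. Not every gene of the list took this course. Prtn3 had 59, 59 and 57 counts for WT, 47, 62 and 69 for Isl1Cre/+ and 41, 60 and 42 for the mutant. It was thus highest in Isl1Cre/+ library 3, the library with the lowest haemoglobin level. For the summed list, r was 0.80 without the 2 outermost libraries (exact permutation p = 0.0329) and 0.87 within genotypes (exact permutation p = 0.00926).

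Skeletal muscle, which is no blood cell, varied with haemoglobin as well. Its 6 genes had 12477, 3396 and 25506 summed counts for WT, 3473, 4558 and 1727 for Isl1Cre/+ and 3587, 54606 and 13788 for the mutant, a 31.6-fold range. Against the haemoglobin level r was 0.90 (p = 0.000879, adjusted 0.0161) and rho 0.93 (p = 0.000750, adjusted 0.0161, exact permutation tests), and r was 0.77 without the 2 outermost libraries (exact permutation p = 0.0391) and 0.85 within genotypes (exact permutation p = 0.0231). All 6 genes, Acta1, Ckm, Myl1, Myh3, Myh8 and Tnnt3, met the criterion as higher in the mutant than in Isl1Cre/+, with log2 fold changes of 2.92 to 3.41, and as lower in Isl1Cre/+ than in WT, with -2.56 to -1.93. Acta1, the actin of muscle fibres and the most abundant of them, had 4212, 1408 and 10508 counts for WT, 1209, 2313 and 735 for Isl1Cre/+ and 1662, 21601 and 6097 for the mutant. No muscle gene met the criterion between the mutant and WT. For the mutant over Isl1Cre/+ the calls of Myh3 and Myh8 were lost without mutant library 2 (1.39 and 1.57), Isl1Cre/+ library 2 (2.90 and 3.16) or Isl1Cre/+ library 3 (3.05 and 3.22), and that of Ckm without Isl1Cre/+ library 3 (2.69). For Isl1Cre/+ over WT those of Acta1, Ckm and Myl1 were lost without WT library 3 (-1.04, -1.32 and -1.41), Isl1Cre/+ library 1 (-1.81, -2.08 and -1.91) or Isl1Cre/+ library 3 (-1.62, -1.71 and -1.60), and that of Myh8 without Isl1Cre/+ library 2 (-2.24) or 3 (-2.30). With limma voom the calls of Ckm, Myh3 and Myh8 over Isl1Cre/+ were lost (2.26, 1.95 and 2.38), as were those of Acta1, Ckm, Myh8 and Tnnt3 for Isl1Cre/+ over WT (-1.67, -1.73, -2.06 and -1.78). With all 3 genotypes in 1 fit Acta1, Ckm, Myh3 and Myh8 lost the latter call (-1.94, -2.04, -2.57 and -2.50).

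Cartilage and platelet genes also followed. The 4 cartilage genes, led by the collagen Col2a1 (979 to 2145 counts), gave r = 0.80 (p = 0.00926, adjusted 0.0463) and rho = 0.87 (p = 0.00451, adjusted 0.0301, exact permutation tests). In that list Acan, aggrecan, met the criterion as higher in the mutant than in Isl1Cre/+, by 1.12 ± 0.40 on the log2 scale (SE), but not without Isl1Cre/+ library 1 (1.0) or 3 (0.90) or mutant library 2 (0.93) or 3 (0.95). The 8 platelet genes gave r = 0.86 (p = 0.00161, adjusted 0.0161) and rho = 0.83 (p = 0.00827, adjusted 0.0463, exact permutation tests). Most of their counts were of Pf4, with 91 to 420 counts, which macrophages express too, and the defining platelet genes Gp9 and Treml1 were each at 0 in 1 library. Without the 2 outermost libraries r was 0.79 for cartilage (exact permutation p = 0.0280) and 0.66 for platelets (exact permutation p = 0.105), each over 7 libraries.

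Other cell types of the ganglion showed no detectable relation of this kind. The 10 endothelial genes, of the vessel walls, summed to between 8095 and 15511 counts and gave r = -0.19 (p = 0.637) and rho = -0.13 (p = 0.744, exact permutation tests). Cdh5, their most abundant gene (2499 to 5283 counts), met the criterion in no comparison, whereas Pecam1, Kdr and Flt1 were higher in Isl1Cre/+ than in WT, by 0.35 ± 0.14, 0.52 ± 0.20 and 0.57 ± 0.15 (log2, SE), in the direction opposite to haemoglobin, and Kdr was lower in the mutant than in Isl1Cre/+ (-0.37 ± 0.15). Among these calls, Pecam1 was lost without any library but WT library 2 (0.21 to 0.40), Kdr over WT without Isl1Cre/+ library 1 (0.41) or 3 (0.54), and Kdr in the mutant without Isl1Cre/+ library 1 (-0.26) or 3 (-0.40) or mutant library 1 (-0.24) or with all 3 genotypes in 1 fit (-0.37). Pecam1 was also lost with scaling by library size only (0.38). The 7 sensory neuron genes, led by the filament gene Prph (46490 to 81445 counts), gave r = -0.12 (p = 0.766) and rho = -0.18 (p = 0.644), and the 6 genes of Schwann and satellite glial cells, led by Fabp7 (7034 to 9340 counts), r = -0.17 (p = 0.653) and rho = -0.10 (p = 0.810), by exact permutation. In the neuron list only Isl1, the gene that carries Cre, met the criterion, lower than in WT by -0.48 ± 0.13 in Isl1Cre/+ and by -0.48 ± 0.13 in the mutant (log2, SE).

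Macrophage genes lay in between, with r = 0.68 (p = 0.0404, adjusted 0.124) and rho = 0.68 (p = 0.0503, adjusted 0.144, exact permutation tests), and r = 0.20 without the 2 outermost libraries. Their most abundant gene, Mrc1 (485 to 1738 counts), was highest in mutant library 2, and no tested macrophage gene met the criterion. In the list of haem and haemoglobin clearance, Cd163, the macrophage receptor that takes up haemoglobin bound to haptoglobin, met it in 2 comparisons, with 1.08 ± 0.42 for the mutant over Isl1Cre/+ and -1.28 ± 0.28 for Isl1Cre/+ over WT (log2, SE). The first of these was lost without any 1 of 5 libraries, being 0.64 without mutant library 2, and with limma voom (0.97). Blvra, the most abundant gene of that list (316 to 406 counts), met it in none. The 6 lymphocyte genes, led by Cd79b with 5 to 24 counts, gave r = 0.55 (p = 0.123) and rho = 0.38 (p = 0.313, exact permutation tests). The total counts of a library gave r = -0.48 (p = 0.197) and rho = -0.42 (p = 0.270, exact permutation tests). The part that the muscle, cartilage and white cell genes, or the depth, have in the differences of haemoglobin between the genotypes was not tested.

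**Figure D4:**
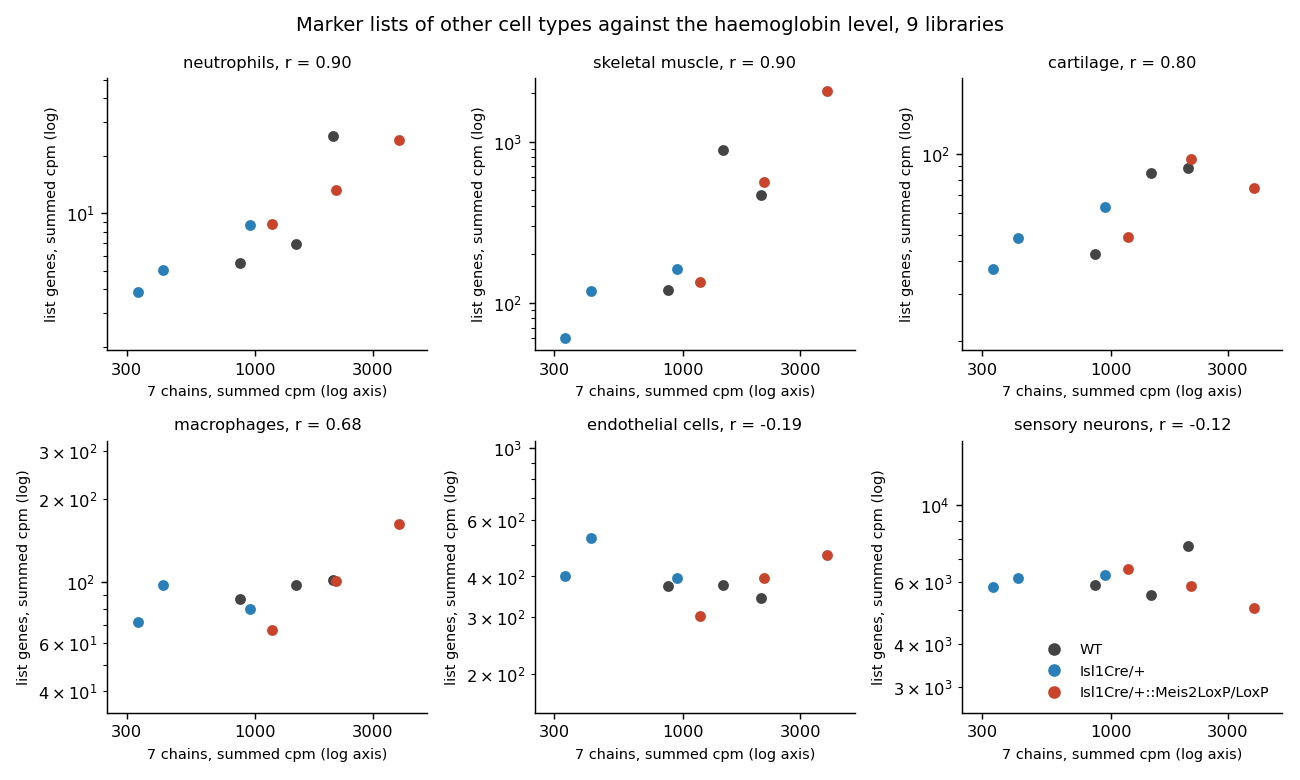
Each panel plots the summed cpm of a marker list against the haemoglobin level, both on log axes, with 1 point per library in the colour of its genotype and Pearson's r over the 9 libraries in the title. The neutrophil and skeletal muscle lists climb with haemoglobin (r = 0.90 each), whereas endothelial cells (-0.19) and sensory neurons (-0.12) do not.

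Among the 10 genes most like the haemoglobin level, of all 13194 tested genes outside the members, were, by Pearson's r of log2(cpm + 0.5) over the 9 libraries, Isg20 (0.99), Ube2l6 (0.97), Lyz2 (0.97), Sln (0.96), G0s2 (0.95), Myl1 (0.95), Tnni2 (0.95), Cpa3 (0.94) and Mylpf (0.94). Over all these genes the median r was 0.02 and the 95th percentile 0.64. Isg20, an exonuclease, had 136, 63 and 92 counts for WT, 31, 50 and 23 for Isl1Cre/+ and 67, 173 and 112 for the mutant, with the same extremes as the chains. Lyz2, lysozyme of macrophages and neutrophils, had 402, 295 and 348, then 275, 341 and 227, then 295, 506 and 373 counts in the 3 genotypes. Sln, Myl1, Tnni2 and Mylpf are muscle genes, and Cpa3 is a protease of mast cells, with 36 to 108 counts. The muscle list had 1 gene among the 10, Myl1.

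**Figure D5:**
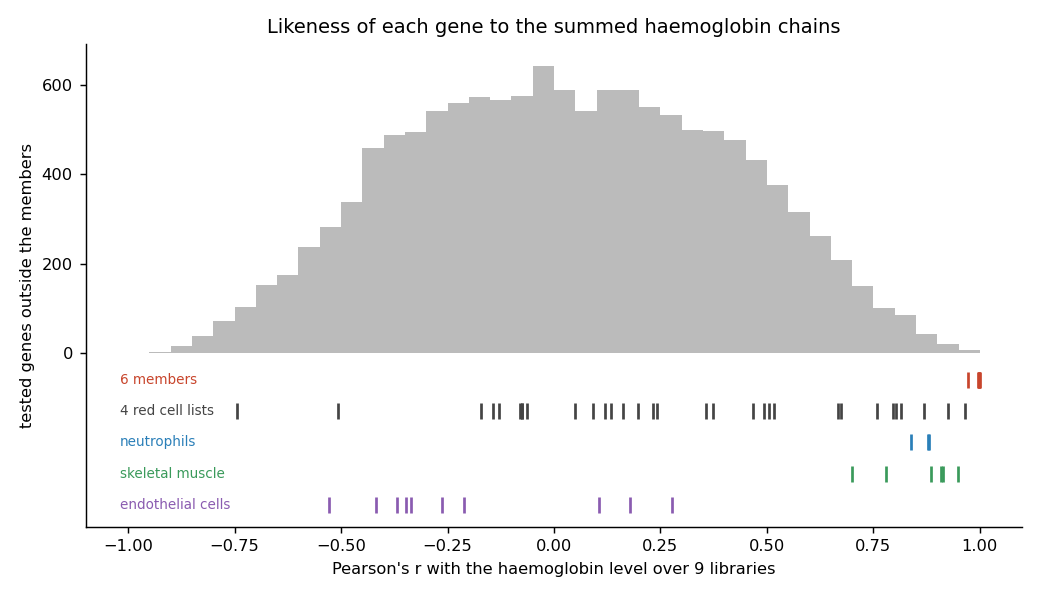
The grey bars count the tested genes outside the 9 red cell genes by their Pearson's r with the haemoglobin level over 9 libraries, and the ticks below show r for the 6 tested red cell genes and for the tested genes of 4 sets of lists. The 6 genes lie between 0.972 and 0.999, neutrophil and skeletal muscle genes lie to the right of most genes, and the red cell lists are spread over much of the range.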

How the data were processed

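The authors dissected DRGs of E18.5 embryos, selected poly(A) RNA, prepared CORALL libraries with unique molecular identifiers, sequenced single-end reads of 84 bases, aligned them to mm10 with STAR, removed duplicates with UMI-tools and deposited the counts of uniquely mapped reads per gene by HTSeq-count. The submitters' processing notes name STAR 2.7.10 and HTSeq 0.6. Which annotation and which strand setting the counting used is not given in the sources used here. The table also holds columns of the authors' own limma comparisons, that is log2 fold changes, mean log2 expression, moderated statistics, p-values and adjusted p-values and log odds, which were not used. Identifiers matched GENCODE M21 (GRCm38) in identifier and version for 54855 of 55247 rows. Sequences are from that release and from RefSeq (promoters, with no entry for Hbb-bh1 and Slc4a1).

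The 9 genes, the gene lists and the alternatives were chosen with earlier results of these data known. Genotypes came from the labels, and the libraries of a genotype were taken as replicates. Library sizes were 23854607 to 29103444 counts. Genes reaching 100 counts in 1 or more of the 9 libraries were kept (13200, holding 99.4% to 99.5% of counts), scaled by TMM and fitted for each pair of genotypes with edgeR 4.0.16 in R 4.3.3 (two-sided quasi-likelihood test, Benjamini-Hochberg over all tested genes). The study's criterion was applied, a change of 1.2-fold or more with p under 0.05 before adjustment. Intervals of shares are 95% Wilson intervals and cover counting error only. Correlations used log2 summed cpm and two-sided exact permutation of all pairings. Named genes are the 9 genes, Meis2, in each red cell list the 3 most abundant and those meeting the criterion, in other lists the most abundant and those meeting it, and the 10 nearest by correlation. Some list genes enter the counts and sums but are not reported here by name. Genes named beyond this rule, among them the 6 of the summed low list, the globin regulators and genes with zero counts, were chosen after their values were seen. Alternatives were other size factors, other filters, DESeq2 1.42.0, limma 3.58.1 voom, 1 fit of 3 groups, a replicate block and each library left out, and 2 were added after seeing the data: list genes under the filter alone, and shares per unshared stretch. The fit was tested on simulated data. All replicate numbers were checked for pairing: correlations of same-numbered libraries ran from -0.595 to 0.389, so the numbers were not used to pair.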

Additional observations from a re-analysis of the deposited data

How the results depend on the processing

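The 2-group fits called 0, 6 and 3 of the 32 tested red cell list genes for the mutant over WT, the mutant over Isl1Cre/+ and Isl1Cre/+ over WT. Without a filter on low counts, when more genes are tested, these counts were 2, 10 and 4, with 408, 1028 and 845 genes meeting the criterion in all against 42, 221 and 185. With all 3 groups in 1 fit 1 list gene was called for the mutant over WT. At an adjusted p under 0.05 none was called in any comparison. With at least 100 counts in every library, 139 and 104 genes in all met the criterion in the last 2 comparisons. Leaving out 1 library at a time gave 0 to 3, 4 to 8 and 1 to 4 list genes, and 40 to 132, 167 to 407 and 102 to 340 genes in all. With the replicate number as a block 0, 6 and 2 list genes and 31, 177 and 236 genes in all met the criterion. The block ended the calls of Myh3, Myh8, Cd163 and Kdr for the mutant over Isl1Cre/+ and of Acta1, Ckm, Myl1 and Pecam1 for Isl1Cre/+ over WT. What the numbers mark is not given in the sources used here, and 5 of the 9 same-numbered pairs of libraries correlated at 0.1 or less in their deviations from the group means, down to -0.595.

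The correlation of the summed list genes with the haemoglobin level turned to -0.0495 with library size only (exact permutation p = 0.899), and was 0.78 (exact permutation p = 0.0128) for the genes under the filter alone. It lay between 0.18 and 0.54 with 1 library left out. The embryonic share from alpha-type chains alone was 0.0586%, 0.141% and 0.0769% in WT, Isl1Cre/+ and the mutant, and per unshared stretch 0.00951%, 0.0231% and 0.0102%. From beta-type chains alone it was 0.0474% in Isl1Cre/+ and 0.0159% in the mutant. For either chain type alone, not all Isl1Cre/+ libraries lay above those of the other genotypes. With 1 library left out the embryonic share of all chains ran from 0.0249% to 0.0377%, from 0.0684% to 0.0905% and from 0.0319% to 0.0403%. The haemoglobin share of all counts then ran from 0.119% to 0.170%, from 0.0384% to 0.0693% and from 0.166% to 0.302%. The cause of these shifts was not tested. Embryonic counts of 7 to 43 per library set the limit for their share, while for the adult chains the spread between libraries does.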
